A study of Mus musculus with 48 samples.

Results

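The Hox genes of the HoxA, HoxB, HoxC and HoxD clusters were followed in cultured mouse lung cells. The members are all genes whose symbol in the annotation of the array is Hoxa, Hoxb, Hoxc or Hoxd followed by a number from 1 to 13. That rule gave 38 of the 20738 named genes. There were 10 members in HoxA, 10 in HoxB, 9 in HoxC and 9 in HoxD. Each gene was read from 1 array feature, the one with the highest mean over all 48 arrays, chosen without regard to group.

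Hox genes encode homeodomain transcription factors that give cells a position along the head-to-tail axis of the embryo. The genes of a cluster lie on the chromosome in the order in which they are used along the axis, with low numbers towards the head and high numbers towards the tail, the limbs and the genital tract. Adult fibroblasts and smooth muscle keep a pattern of Hox transcripts that reflects the place they came from, and in the lung the mesenchyme is known for genes of the low and middle numbers. Hoxa5 is needed for normal growth of the trachea and lung, and Hoxb5 takes part in airway branching.

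The cells were AECII (alveolar epithelial cells of type II, which make surfactant) and PASMC (pulmonary artery smooth muscle cells) from C57Bl/6J mice, 8 mice in the series. AECII were held in medium with 10% serum and exposed from 24 h after isolation. PASMC were obtained with iron particles, grown out and used at passage 1 in medium with 15% serum, so cell type and culture history cannot be told apart. Each cell type came as an untreated control (Ctrl, for which the labels' treatment entry is room air) and with a 15% extract of electronic-cigarette vapour (ECVE) for 24 h. The extracts were made from a liquid without nicotine (0mg) or with 18 mg/ml nicotine (18mg), and the labels enter both as smoke. Each of the 6 groups had 8 one-colour arrays. The labels do not say which replicate number is which mouse, so the p-values measure the spread between arrays, part of which may be technical. Groups of 8 arrays from 8 mice may share mice, and the fits treat all arrays as independent. Levels are the deposited log2 signals, on which 1 unit is a doubling, and the number of arrays limits the precision.

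Promoters of 22 of the 38 members, 24 start sites in all, matched RefSeq promoters of build GRCm38.p6. The 250 bases before the start are shown for 4 of them because they stand for the range of levels and clusters below: Hoxa5, Hoxb4 and Hoxb8 carried a signal in these cultures and Hoxd13 did not. They lie at chr6:52204588-52204837 on the minus strand (Hoxa5), chr11:96318017-96318266 on the plus strand (Hoxb4), chr11:96281655-96281904 on the plus strand (Hoxb8) and chr2:74667975-74668224 on the plus strand (Hoxd13). Each is written 5′ to 3′ on the strand of its gene, and capitals mark CpG dinucleotides.
Hoxa5: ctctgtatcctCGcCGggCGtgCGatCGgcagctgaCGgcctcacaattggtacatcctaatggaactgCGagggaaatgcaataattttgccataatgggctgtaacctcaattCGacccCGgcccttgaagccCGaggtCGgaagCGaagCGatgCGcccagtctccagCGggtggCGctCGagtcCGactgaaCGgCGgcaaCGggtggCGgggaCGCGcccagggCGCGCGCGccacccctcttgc
Hoxb4: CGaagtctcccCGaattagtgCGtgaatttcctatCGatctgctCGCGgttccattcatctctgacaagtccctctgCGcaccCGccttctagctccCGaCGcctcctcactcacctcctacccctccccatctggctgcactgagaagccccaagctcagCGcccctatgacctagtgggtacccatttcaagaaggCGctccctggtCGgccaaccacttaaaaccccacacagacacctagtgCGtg
Hoxb8: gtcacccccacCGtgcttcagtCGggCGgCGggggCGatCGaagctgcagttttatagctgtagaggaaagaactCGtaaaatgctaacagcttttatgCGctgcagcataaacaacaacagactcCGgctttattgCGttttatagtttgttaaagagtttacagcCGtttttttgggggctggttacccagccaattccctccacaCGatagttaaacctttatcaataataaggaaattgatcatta
Hoxd13: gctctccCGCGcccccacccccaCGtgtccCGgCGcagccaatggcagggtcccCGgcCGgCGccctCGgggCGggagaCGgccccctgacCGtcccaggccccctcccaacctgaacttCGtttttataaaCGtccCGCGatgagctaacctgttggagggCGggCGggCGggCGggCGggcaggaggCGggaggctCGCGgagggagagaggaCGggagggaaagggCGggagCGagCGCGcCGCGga

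The stretch before Hoxa5 held 28 CpGs, that of Hoxb4 14, that of Hoxb8 12 and that of Hoxd13 31. Over the 24 member promoters the median was 12.5 CpGs, against 6 over 32851 promoters of 27025 genes, and the median ratio of observed to expected CpG was 0.72 against 0.37. The median CpG count was 12.5 in the 10 matched promoters of members above the background defined below and 12.5 in the 14 others. Their median ratios of observed to expected CpG were 0.72 and 0.64. Members above background without a matched promoter were Hoxa4, Hoxb2, Hoxb3, Hoxb5, Hoxb6, Hoxb7, Hoxb9, Hoxc6 and Hoxc10, so these medians leave out most of HoxB. On either strand the letters TGATNNAT, a composite site bound by Pbx and Hox proteins together, occurred in 16.7% of member promoters and 7.7% of all promoters. TGACAG, the core read by Meis proteins, occurred in 8.3% and 15.9%, TATAAA in 16.7% and 12.4%, CCAAT in 58.3% and 33.8%, and TAATTA, a general homeodomain core, in 8.3% and 4.8%. No matches of different motifs overlapped in the member promoters. Hoxb8 held 1 match to TGATNNAT and 2 to TATAAA, and Hoxd13 held 2 to TATAAA, which are overlapping reads of a single stretch on the 2 strands. These are letters in a window and not tested sites.

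The labelled cell types were checked with marker genes first. In control cultures the surfactant gene Sftpc stood at 14.33 ± 0.30 (SD, n = 8) in AECII and the epithelial adhesion gene Epcam at 9.08 ± 0.35. In PASMC Epcam was 3.21 ± 0.81, while the smooth muscle actin gene Acta2 was 14.98 ± 0.34 against 11.71 ± 0.67 in AECII. Of the 12 AECII markers, 11 stood above background in AECII controls and 8 in PASMC controls. Their mean level per array was at least 8.54 in AECII controls and at most 6.56 in PASMC controls. Not every marker of this list separated the cell types. Etv5 was lower in AECII (7.47 against 9.73), Lamp3 was close in both (10.9 and 10.6), and Slc34a2 was under background in both. AECII cultures also carried mesenchymal transcripts, among them the collagen gene Col1a1 at 11.06 ± 0.26 against 13.40 ± 0.36 in PASMC, and the mesothelial gene Upk3b at 7.78 ± 0.54 against 2.29 ± 0.37. The leukocyte gene Ptprc (3.43 ± 0.70 in AECII, 3.19 ± 0.78 in PASMC) and the endothelial gene Pecam1 (3.67 ± 0.56 and 3.52 ± 1.20) were near background in both. Other markers of these cells were not. Of 7 endothelial markers 5 stood above background in each cell type, among them the receptor gene Kdr at 7.64 ± 0.33 in AECII and 8.19 ± 0.23 in PASMC. Of the leukocyte markers, 9 of 11 stood above it in AECII controls and 8 in PASMC controls, with a mean level per array of 5.69 to 7.09 and 5.40 to 7.75. AECII arrays resembled each other closely within a group (Pearson r across genes 0.973 to 0.986), and PASMC arrays less so (0.937 to 0.986). Sftpc exceeded 6 in 3, 4 and 4 of the 8 arrays of the PASMC Ctrl, 0mg and 18mg groups. Further sets of PASMC arrays stood apart: Col3a1, a fibrillar collagen gene, was below 9 in 3 arrays (1 per condition), and Sox10, a neural crest and Schwann cell factor, was above 8 in 6 arrays (2 per condition). Col3a1 and Sox10 were singled out after their values were seen, and results are given below with and without these arrays.

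Of the 38 Hox members, 19 rose above background in at least 1 group. Background was set at the 95th percentile of the group means of 1345 olfactory and vomeronasal receptor genes, which lay between 3.29 and 3.41 in the 6 groups. Among the genes numbered 1 to 8, 16 of 22 were above it in some group, and among those numbered 9 to 13 it was 3 of 16. HoxB contributed 8 (Hoxb2 to Hoxb9), HoxA 7 (Hoxa2 to Hoxa7 and Hoxa11), HoxC 3 (Hoxc4, Hoxc6 and Hoxc10) and HoxD 1 (Hoxd8). AECII had 16 members above background in some group and 12 in every group, and PASMC had 18 and 16. Hoxa6, Hoxa11, Hoxc10 and Hoxd8 did not pass the 99th percentile of the receptor genes in any group. Of the genes numbered 9 to 13, Hoxb9 alone did. The share of all genes above background in some group is not given here.

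**Figure D1:**
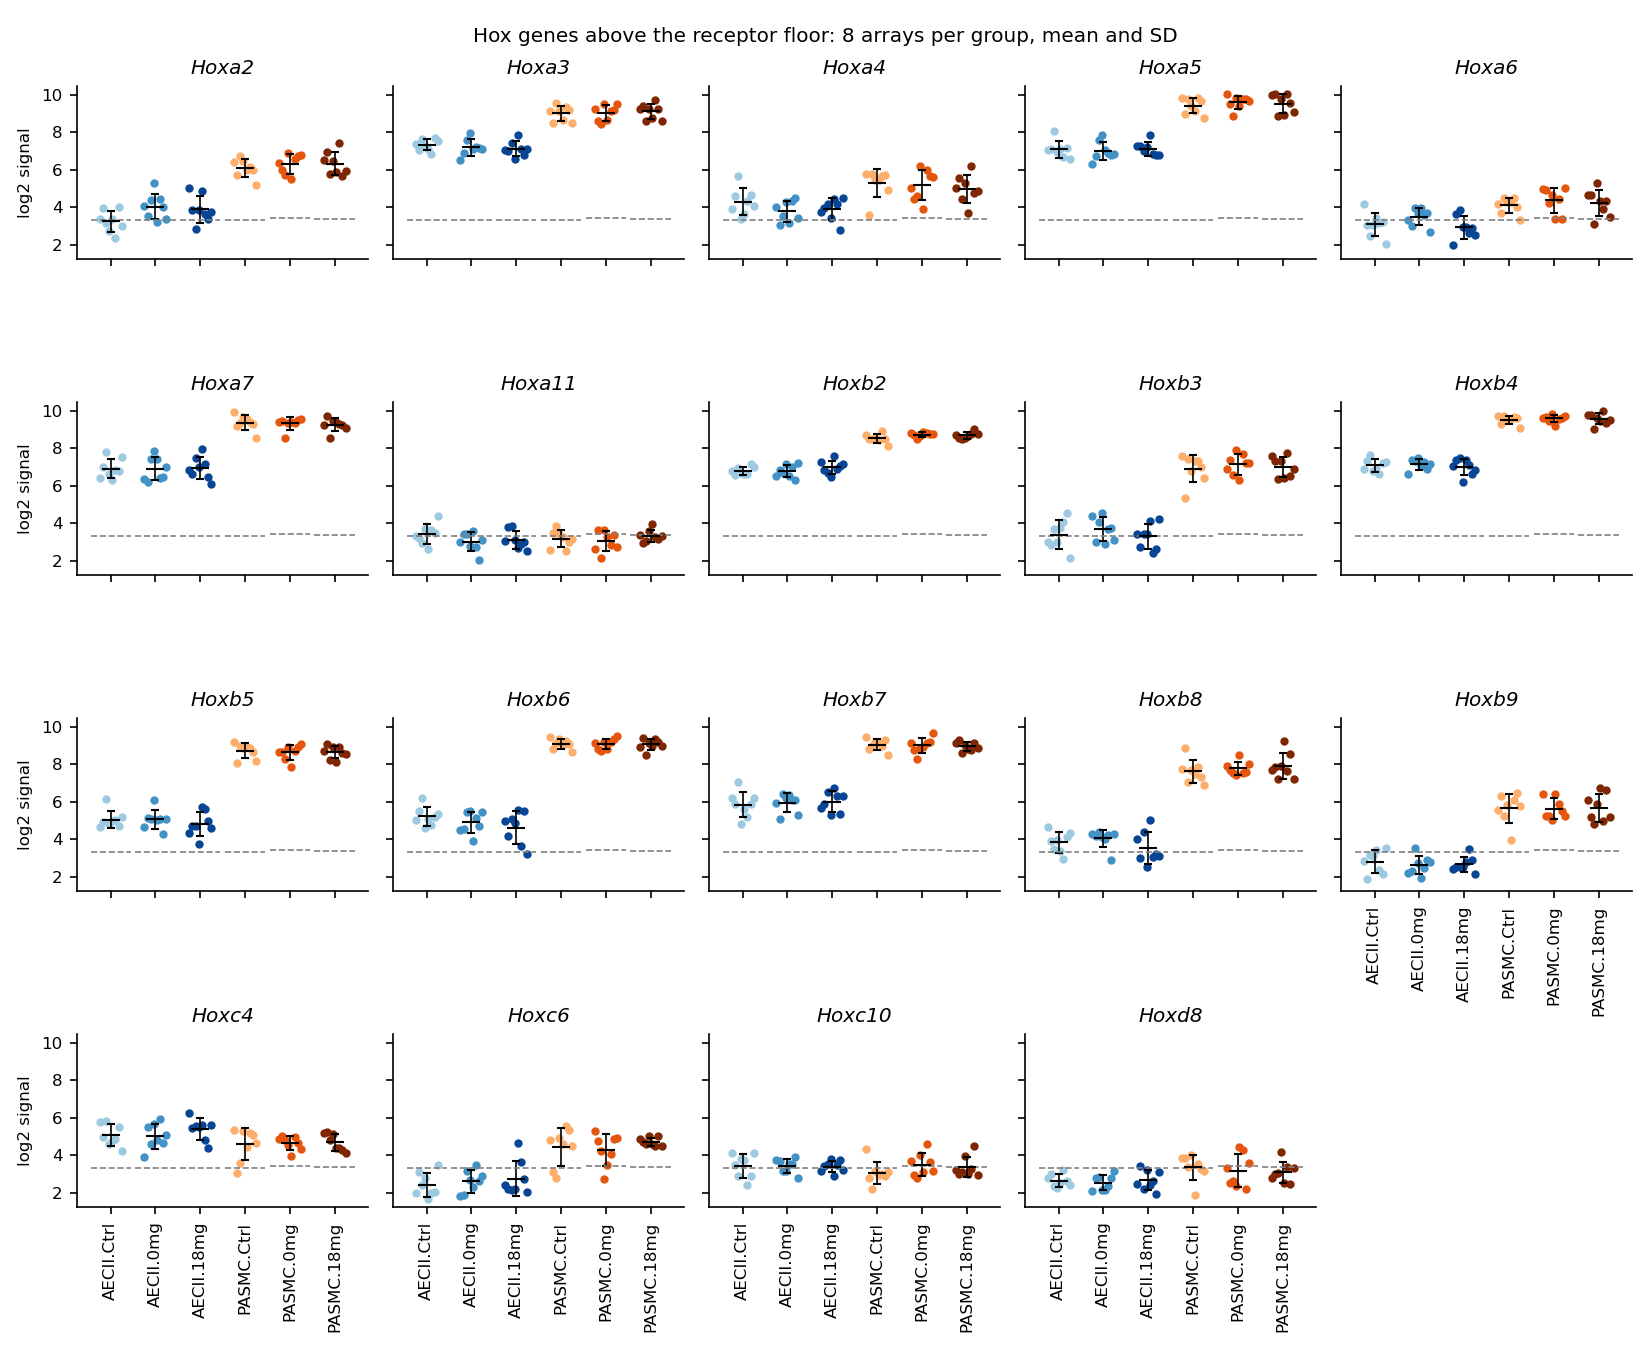
Log2 signal (y axis, the same in every panel) of the 19 Hox genes above background, in the 6 groups (x axis). Points are the 8 arrays of a group, the black bar is the mean with 1 SD, and the dashed line is the receptor background of that group; Hoxb6 runs from 3.20 to 6.17 in AECII and from 8.48 to 9.49 in PASMC.

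The other 19 members were under background in all 6 groups on their chosen feature: Hoxa9, Hoxa10, Hoxa13, Hoxb1, Hoxb13, Hoxc5, Hoxc8, Hoxc9, Hoxc11, Hoxc12, Hoxc13, Hoxd1, Hoxd3, Hoxd4, Hoxd9, Hoxd10, Hoxd11, Hoxd12 and Hoxd13. Their group means ran from 1.89 to 2.97, the highest being Hoxc5 in PASMC controls. Hoxb1 has 10 features, and another of them averaged 3.83 in PASMC with 0mg, over the line of 3.41, and 2.28 to 2.55 in the other groups. The SD across the 10 features had a median of 0.50 over the arrays and reached 2.89 in the most extreme array. Whether the mean of 3.83 rests on a single array was not tested. The 19 genes include the limb and genital genes Hoxa13 and Hoxd13 and the hindbrain gene Hoxb1. Hoxd13, whose CpG-rich promoter is printed above, ran from 1.86 to 3.51 over the 24 AECII arrays and from 1.68 to 3.21 over the 24 PASMC arrays.

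The first 3 comparisons set AECII against PASMC in the same condition, to show which positional genes differ between the cell types. In controls, 16 of the 38 members were lower in AECII and 0 were higher (limma across all genes, Benjamini-Hochberg adjusted p under 0.05). Of all 14775 genes tested, 31.3% were called lower and 27.9% higher. Only 19 members passed the filter on dim genes and were tested, and Hoxb9, Hoxc6 and Hoxd8 passed it through their level in PASMC. Over all 38 members the median difference was -0.35 log2, against -0.03 over all 20738 genes. For 12 members every AECII control array lay below every PASMC control array, as for 14.8% of all genes tested. AECII and PASMC are different cell types, and in bulk RNA fewer cells of a type and less RNA per cell cannot be told apart.

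HoxB held the larger differences, with 8 of its 10 members lower in AECII and a cluster median of -3.02 log2. Hoxb6, a gene of the thoracic region and lateral plate mesoderm, ran from 4.60 over a median of 5.14 to 6.17 in AECII controls and from 8.66 over 9.10 to 9.43 in PASMC controls. The groups did not overlap, and the mean was 14.6-fold lower in AECII (-3.87 log2, SE 0.25, limma adjusted p = 4.19e-18). Hoxb8, known for a role in microglia and grooming in mice and in blood progenitors, ran from 2.92 over 3.95 to 4.65 in AECII and from 6.90 over 7.56 to 8.86 in PASMC. It was above background in 7 of 8 AECII control arrays, and its mean was 13.7-fold lower there (-3.77, SE 0.30, adjusted p = 3.39e-15). Hoxb5 ran from 4.64 over 4.94 to 6.13 in AECII and from 8.06 over 8.87 to 9.21 in PASMC. All AECII arrays lay below all PASMC arrays, with a 12.7-fold lower mean (-3.67, SE 0.23, adjusted p = 1.98e-18).

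Hoxb3, a hindbrain gene, ran from 2.12 over 3.36 to 4.53 in AECII controls, where 4 of 8 arrays were above background, and from 5.36 over 7.16 to 7.58 in PASMC. The difference was -3.53 (SE 0.32, adjusted p = 3.01e-13), but the AECII mean of 3.37 lay at the background line of 3.34, so no fold is given. Its other feature on the array gave a smaller gap, with control means of 3.24 and 5.71. Hoxb7 ran from 4.82 over 5.87 to 7.04 in AECII and from 8.46 over 9.06 to 9.44 in PASMC, a 9.15-fold lower mean (-3.19, SE 0.23, adjusted p = 1.81e-16). Hoxb9, which acts in rib patterning, ran from 1.88 over 2.96 to 3.52 in AECII and from 3.96 over 5.79 to 6.44 in PASMC. Only 2 of 8 AECII control arrays were above background, so its mean in PASMC was at least 4.83-fold higher with the AECII arrays set no lower than background (limma adjusted p = 2.19e-11 on the values as deposited).

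Hoxb4, known for expansion of blood stem cells, and Hoxb2, a hindbrain gene, had a clear signal in both cell types. Hoxb4 ran from 6.60 over 7.07 to 7.62 in AECII and from 9.10 over 9.61 to 9.71 in PASMC, 5.43-fold apart (-2.44, SE 0.15, adjusted p = 1.22e-18). Hoxb2 ran from 6.58 over 6.72 to 7.15 and from 8.12 over 8.49 to 8.91, 3.31-fold apart (-1.73, SE 0.13, adjusted p = 2.24e-16). Neither gene overlapped between the cell types. The remaining HoxB members, Hoxb1 at the head end of the series and Hoxb13 at the tail end, were under background on the chosen feature.

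In HoxA, 6 of 10 members were lower in AECII, and the cluster median was -1.01 log2. Hoxa5 ran from 6.57 over 7.08 to 8.04 in AECII controls and from 8.74 over 9.53 to 9.84 in PASMC controls. The gene was thus present in both, without overlap, and 5.07-fold lower in AECII (-2.34, SE 0.21, limma adjusted p = 3.51e-13). Hoxa7, which takes part in vertebral patterning, ran from 6.32 over 6.79 to 7.78 in AECII and from 8.57 over 9.39 to 9.94 in PASMC, 5.51-fold apart (-2.46, SE 0.23, adjusted p = 1.23e-12). Hoxa3, needed for the thymus and parathyroid, ran from 6.86 over 7.33 to 7.69 and from 8.48 over 9.12 to 9.56, 3.20-fold apart (-1.68, SE 0.19, adjusted p = 3.25e-10). All AECII control arrays lay below all PASMC control arrays for both genes.

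Hoxa2, which sets the identity of the second pharyngeal arch, ran from 2.35 over 3.26 to 4.03 in AECII controls and from 5.20 over 6.07 to 6.72 in PASMC controls. With 4 of 8 AECII arrays above background and the group mean under it, the PASMC mean was at least 5.93-fold higher (adjusted p = 2.02e-11). Hoxa4 overlapped between the cell types, from 3.35 over 4.22 to 5.65 in AECII and from 3.61 over 5.56 to 5.76 in PASMC (-1.01, SE 0.34, adjusted p = 0.00978). Without the PASMC arrays with Sftpc above 6 the Hoxa4 difference was -0.92 and no longer called (adjusted p = 0.0626). Hoxa6 also overlapped, from 2.05 over 3.11 to 4.19 and from 3.33 over 4.22 to 4.50, and its PASMC mean was at least 1.55-fold higher (adjusted p = 0.00224).

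Hoxa11, a gene of the forearm, kidney and uterus, was above background, on its chosen feature, in AECII controls only, and barely so, at 3.41 ± 0.53 against 3.16 ± 0.45 in PASMC controls (n = 8 each). The difference of 0.25 (SE 0.23) was not called (adjusted p = 0.375). The gene has 9 further features on the array with means of 2.06 to 2.78 over all arrays. The brightest of these averaged 3.42 in PASMC with 0mg, at the background line of 3.41, where the chosen feature averaged 3.03, so the features disagree on where the signal lies.

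HoxC differed from HoxA and HoxB in that Hoxc4, a cervical gene, had a signal in both cell types and was not lower in AECII. Hoxc4 ran from 4.22 over 4.91 to 5.82 in AECII controls and from 3.04 over 4.88 to 5.33 in PASMC controls, and the groups overlapped (0.48, SE 0.29, adjusted p = 0.158). Hoxc6, a thoracic gene, ran from 1.66 over 2.23 to 3.46 in AECII and from 2.79 over 4.71 to 5.57 in PASMC. With 1 of 8 AECII arrays above background, its PASMC mean was at least 2.14-fold higher (adjusted p = 6.91e-06). Hoxc10, a lumbar and hindlimb gene, lay at the background line, at 3.42 ± 0.63 in AECII and 3.04 ± 0.59 in PASMC controls (0.37, SE 0.26, adjusted p = 0.219). Hoxd8, the single HoxD member above background, was so in PASMC controls only, at 3.36 ± 0.68 against 2.64 ± 0.33 in AECII. It was called lower in AECII (-0.71, SE 0.29, adjusted p = 0.0308), but against background the PASMC mean was at least 1.01-fold higher, so its size is not resolved. Leaving out PASMC control arrays 1, 2 or 4 or AECII control arrays 3 or 4 ended this call, with adjusted p between 0.0517 and 0.0716 and differences of -0.62 to -0.68, and so did leaving out the PASMC arrays with Sftpc above 6 (adjusted p = 0.0614).

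The difference was also seen in the cultures given extract. These are other arrays of the same 2 cell types and may come from the same mice, so they are no independent repeat. In the 0mg groups 15 members were lower in AECII and 0 higher, against 30.9% and 27.9% of all genes tested. In the 18mg groups 15 were lower and 1 was higher, against 30.3% and 28% of all genes tested. The 15 called lower in every condition were Hoxa2 to Hoxa7, Hoxb2 to Hoxb9 and Hoxc6, and 25.9% of all genes tested were called lower in every condition. Of these members, Hoxb9 and Hoxc6 passed the filter on dim genes through their level in PASMC, and Hoxb9 is also among those without overlap below. Over all 24 AECII and 24 PASMC arrays, 11 members did not overlap: Hoxa3, Hoxa5, Hoxa7 and Hoxb2 to Hoxb9 (9.49% of all genes tested were lower without overlap). The widest gap was in Hoxb6, with a highest AECII value of 6.17 and a lowest PASMC value of 8.48. Hoxb8 came next, at 5.01 and 6.90, then Hoxb5, at 6.13 and 7.84, and the narrowest gaps were those of Hoxb9 (3.52 and 3.96) and Hoxa3 (7.96 and 8.41).

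**Figure D2:**
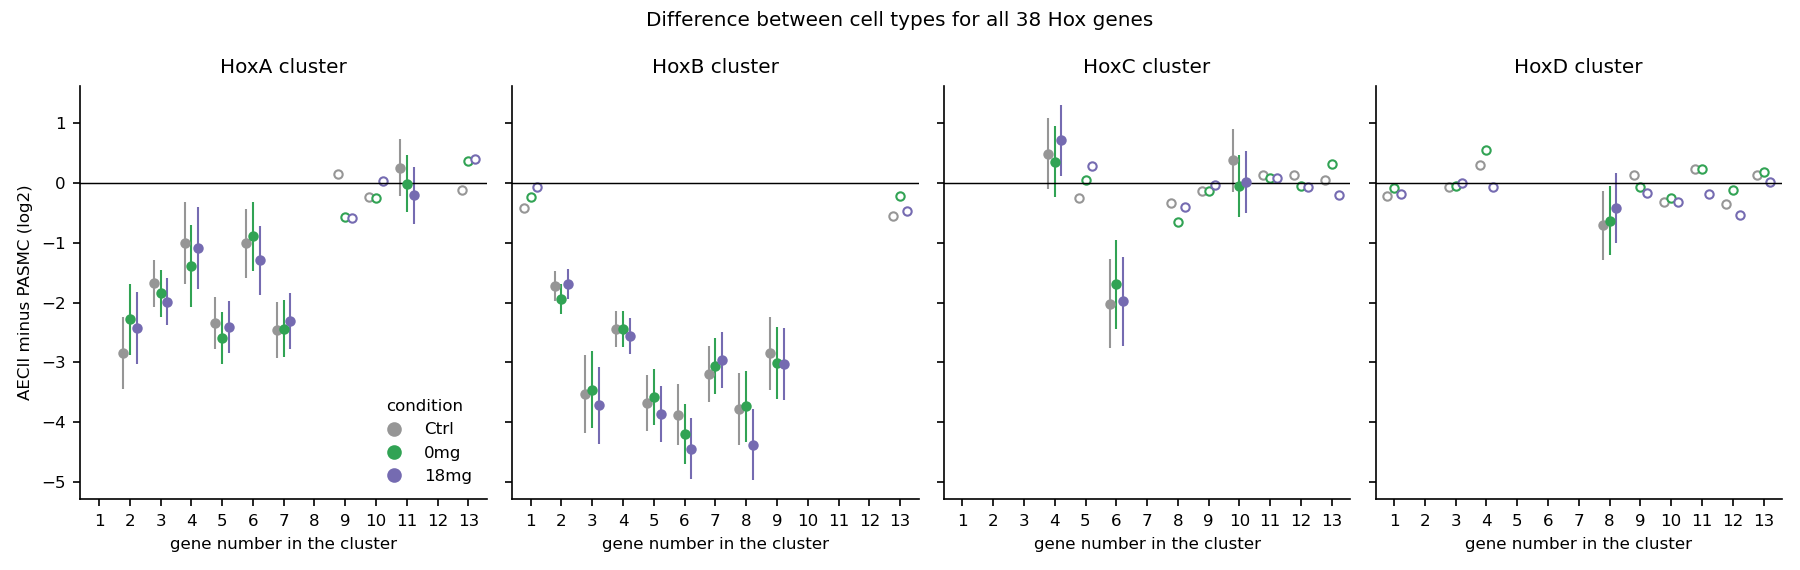
Difference between cell types (y axis, AECII minus PASMC, log2) for all 38 Hox genes by cluster (panels) and gene number (x axis), in the 3 conditions (colours). Filled points with 95% intervals were tested and open points lay under the filter; HoxB genes 2 to 9 sit between -1.70 and -4.44, and the genes numbered 10 and up lie between -0.56 and 0.39.

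In the 18mg cultures Hoxb6 reached -4.44 (SE 0.25, limma adjusted p = 3.49e-20) and Hoxb8 -4.37 (SE 0.30, adjusted p = 2.44e-17). Hoxb3 was at background in AECII there, at 3.29 ± 0.67, and its PASMC mean was at least 10.8-fold higher on the chosen feature. The other Hoxb3 feature gave a smaller gap, with 18mg means of 2.77 in AECII and 5.38 in PASMC. Hoxc4 was the single member called higher in AECII, in the 18mg cultures (0.71, SE 0.29, adjusted p = 0.0356). It ran from 4.37 over 5.51 to 6.26 in AECII and from 4.14 over 4.61 to 5.22 in PASMC, so the arrays overlapped. The call was lost without any one of AECII arrays 1, 3, 4, 5 and 8 or PASMC arrays 5, 6, 7 and 8 of these groups, and without the PASMC arrays with Sftpc above 6 or with Sox10 above 8. Hoxc4 was not called in the 0mg cultures (0.35, SE 0.29, adjusted p = 0.318), and Hoxd8 was not called with either extract (adjusted p = 0.0567 and 0.218).

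Markers of other cells moved with this difference. The 13 fibroblast and mesenchyme markers had a mean level per array of 6.84 to 7.56 in AECII controls and 9.18 to 11.5 in PASMC controls, with 10 and 13 of them above background. The 10 smooth muscle markers had 7.29 to 7.99 and 9.38 to 10.6, with 7 and 8 above background. Of the neural crest and Schwann list, 4 genes were on the array; they had 2.23 to 3.07 in AECII, where none was above background, and 6.12 to 9.22 in PASMC, where all 4 were. Lists on the AECII side moved the other way: the 7 airway markers had 7.30 to 7.86 in AECII and 3.42 to 4.63 in PASMC (6 and 3 above background), the 6 mesothelial markers 9.35 to 10.4 and 2.96 to 4.34 (6 and 3), and the 7 alveolar type I markers 9.45 to 10.7 and 4.62 to 6.77 (7 and 5). The club cell gene Scgb1a1, singled out after its values were seen, was 15.73 ± 0.05 in AECII and 3.76 ± 0.94 in PASMC. The 11 leukocyte markers overlapped between the cell types, as given above. The part of these cells in the Hox difference was not tested. The count of members lower in AECII controls was 16 without the PASMC arrays with Col3a1 below 9, 16 without those with Sox10 above 8 and 14 without those with Sftpc above 6.

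Within PASMC the Hox genes did not all move the same way in the arrays that stood apart. In the 3 arrays with Col3a1 below 9, Hoxb8 was 8.49 to 9.25 against 6.90 to 8.52 in the other 21. Hoxb5 was 7.84 to 8.14 there against 8.18 to 9.21, and Hoxb3 was 5.36 to 6.41 against 6.34 to 7.93. Hoxb9 was 6.30 to 6.71 there against 3.96 to 6.61. Hoxa5 was 8.89 to 9.39 against 8.74 to 10.04, and Hoxb4 was 9.18 to 9.46 against 9.03 to 9.98. Hoxb8 and Hoxb9 were thus towards the top of their ranges in the same arrays in which Hoxb3 and Hoxb5 were towards the bottom of theirs. Correlation between the Hox genes was not tested. In the 6 arrays with Sox10 above 8, Hoxa3 was 8.41 to 8.63 against 8.51 to 9.73 in the other 18, and Hoxb9 was 3.96 to 5.78 against 4.95 to 6.71. Hoxa3 was also towards the bottom of its range, 8.51 to 8.78, in the 3 arrays with low Col3a1. Each condition held the same number of these arrays. Over all 24 PASMC arrays the SD was 0.19 for Hoxb2 and 0.23 for Hoxb4, and 0.74 for Hoxa4 and 0.76 for Hoxc6.

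**Figure D3:**
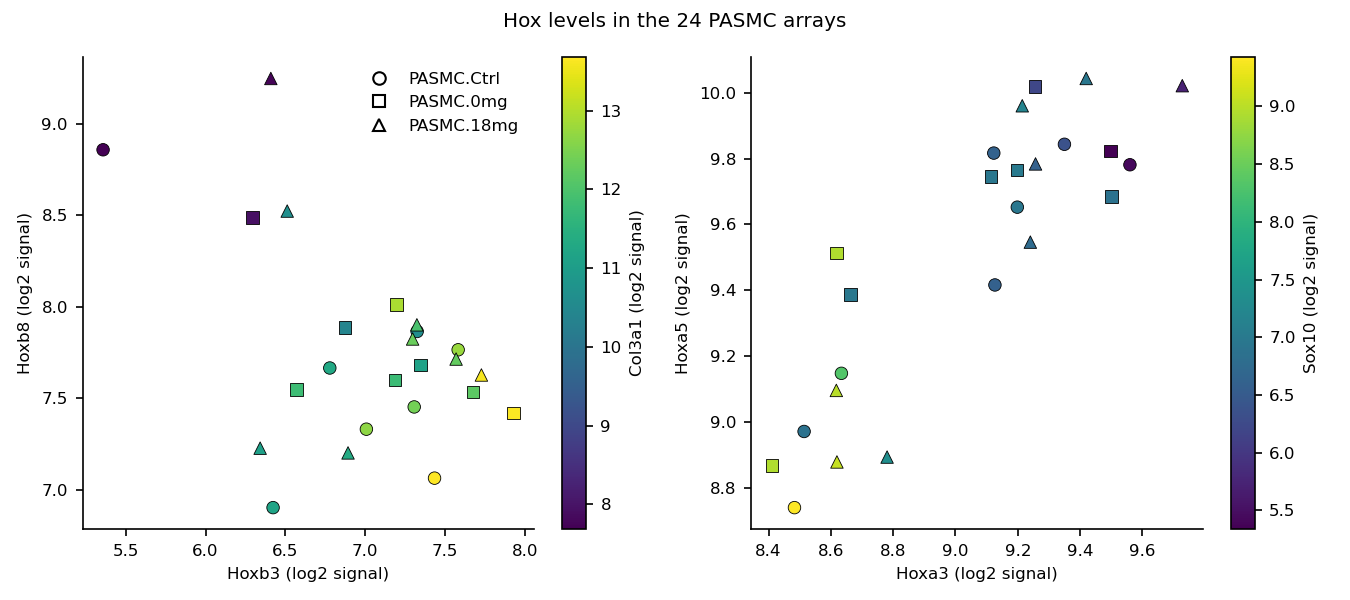
Log2 signals in the 24 PASMC arrays: Hoxb8 against Hoxb3 with points coloured by Col3a1 (left), and Hoxa5 against Hoxa3 coloured by Sox10 (right); circles are Ctrl, squares 0mg and triangles 18mg. The 3 arrays with Col3a1 of 7.69 to 7.93 lie at the upper left of the left panel, and the 6 arrays with Sox10 of 8.32 to 9.43 lie at the left of the right panel, beside the same 3 arrays with low Col3a1.

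Genes that work with Hox proteins differed between the cell types too. Hox proteins bind DNA together with PBC and TALE homeodomain cofactors, and of the 8 cofactors on the array 5 were lower and 2 higher in AECII controls (median -1.05 log2, against -0.03 over all genes, of which 27.9% were called higher and 31.3% lower). Meis1 was 8.41 ± 0.53 in AECII and 10.35 ± 0.34 in PASMC (-1.94, SE 0.22, limma adjusted p = 1.98e-10). Meis3 was lower by -1.69 (SE 0.17, adjusted p = 8.29e-12), Meis2 by -1.23 (SE 0.24, adjusted p = 1.53e-05), Pknox2 by -1.34 (SE 0.32, adjusted p = 3.42e-04) and Pknox1 by -0.87 (SE 0.15, adjusted p = 2.01e-06). Pbx3 went the other way, at 8.75 ± 0.23 in AECII and 7.76 ± 0.21 in PASMC (0.99, SE 0.12, adjusted p = 3.31e-10). Pbx4 was higher by 0.71 (SE 0.28, adjusted p = 0.0244) from a PASMC level under background, and Pbx2 was not called (-0.12, SE 0.10, adjusted p = 0.329).

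Retinoic acid, made from vitamin A, switches on Hox genes at the head end of the clusters in the embryo. Of 15 tested genes of its supply, receptors and breakdown or of the Cdx factors, 2 were higher and 10 lower in AECII controls, against the same shares of all genes. The higher ones were Rdh10 and Aldh1a1, enzymes for the steps that make retinoic acid. Rdh10 was 10.57 in AECII and 6.53 in PASMC (4.04, SE 0.12, adjusted p = 7.17e-30), and Aldh1a1 was higher by 3.97 (SE 0.22, adjusted p = 1.35e-20). Aldh1a2, another enzyme that makes it, was lower by -2.09 (SE 0.30, adjusted p = 8.25e-08), and Dhrs3, which turns retinal back to retinol, by -3.51 (SE 0.46, adjusted p = 7.94e-09). The receptor genes Rara (-1.24, SE 0.09, adjusted p = 5.58e-17) and Rxrb (-0.71, SE 0.08, adjusted p = 2.46e-10) were lower as well. The list thus held genes in both directions, more of them lower, and its median was -0.65 log2 against -0.03 over all genes.

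Polycomb complexes keep Hox clusters silent, and Trithorax complexes keep them active. Of 21 tested Polycomb genes, 8 were higher and 2 lower in AECII controls, and of 16 Trithorax and demethylase genes 8 were higher and 2 lower, against 27.9% and 31.3% of all genes tested. The core Polycomb gene Eed was higher by 0.64 (SE 0.08, adjusted p = 8.72e-10), Phc2 by 0.86 (SE 0.10, adjusted p = 1.01e-09), Mtf2 by 0.93 (SE 0.13, adjusted p = 4.26e-08) and Rbbp7 by 0.38 (SE 0.06, adjusted p = 1.66e-06). Rnf2 (-0.49) and Phf1 (-0.62) were lower. On the Trithorax and demethylase list the methyltransferase gene Kmt2d was higher by 1.87 (SE 0.27, limma adjusted p = 7.49e-08). Dpy30 was higher by 0.70, Wdr5 by 0.61 and the demethylase gene Kdm5c by 0.58. Kdm6b, which removes the Polycomb mark, was lower by -0.76 (SE 0.13, adjusted p = 1.37e-06), and Kdm5b by -0.18 (SE 0.08, adjusted p = 0.0469). Apart from Kmt2d, every called difference in both lists was under 1 log2 unit.

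**Figure D4:**
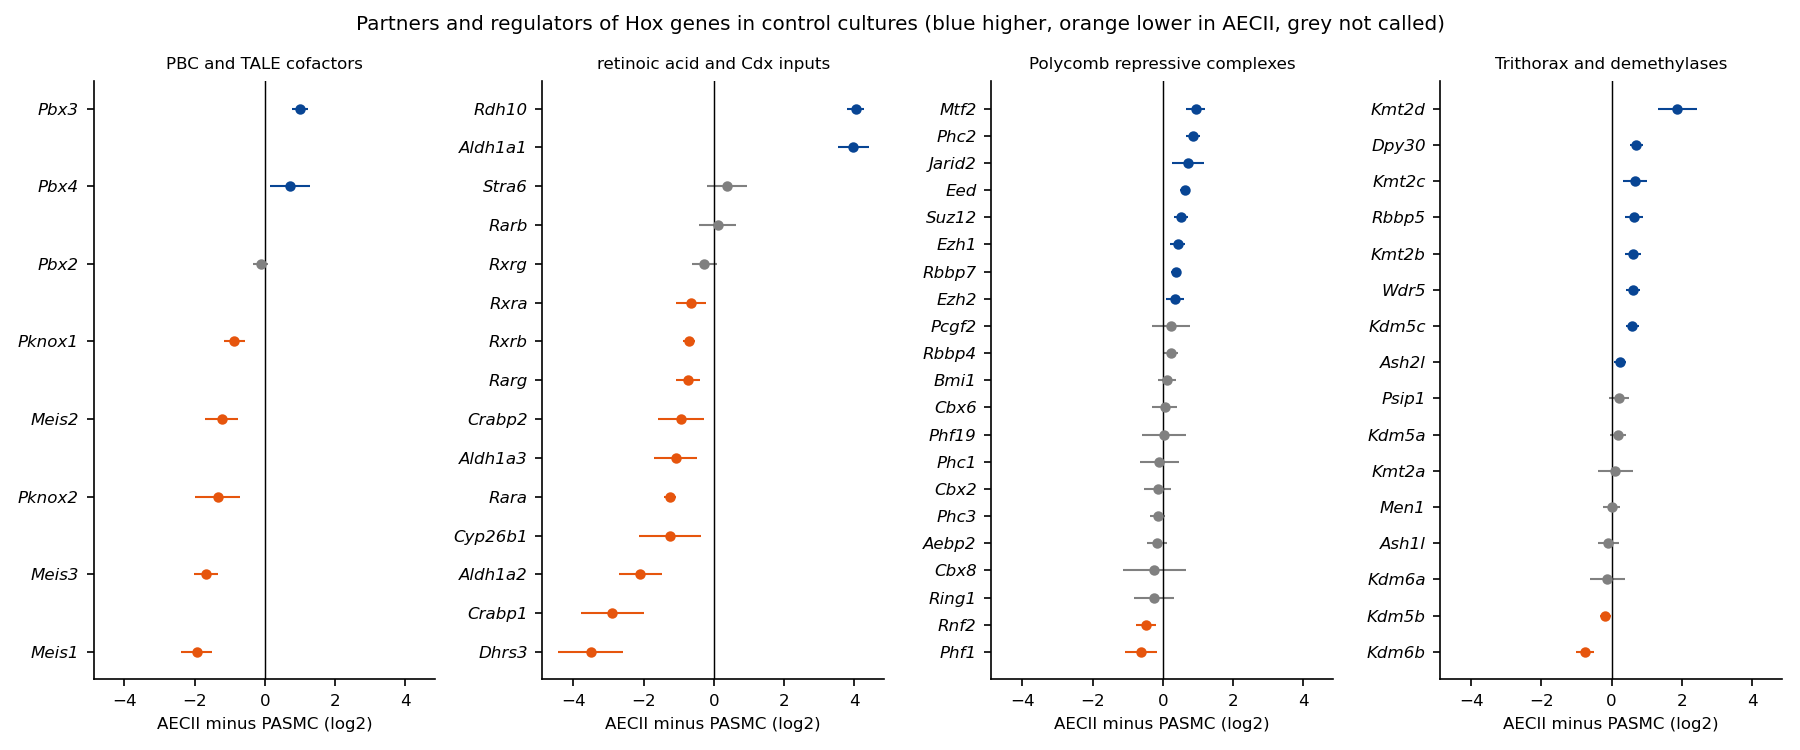
AECII minus PASMC in controls (x axis, log2, with 95% intervals) for tested genes of 4 lists. These are cofactors, retinoic acid genes, Polycomb genes, and Trithorax and demethylase genes. Blue genes were called higher in AECII, orange lower and grey not called; Rdh10 (4.04) and Dhrs3 (-3.51) lie farthest out.

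Of 32 other embryonic patterning factors tested, 9 were higher and 16 lower in AECII controls, against 27.9% and 31.3% of all genes tested. The higher side was led by Irx1, higher by 5.95 (SE 0.43, adjusted p = 2.80e-16), Irx2 by 5.01 (SE 0.24, adjusted p = 1.24e-22), Tbx1 by 4.76 (SE 0.29, adjusted p = 7.09e-19) and the signal gene Shh by 4.20 (SE 0.26, adjusted p = 7.06e-19). On the lower side stood Tbx5 (-3.11, SE 0.33), Tbx3 (-2.81, SE 0.20) and Tbx4 (-2.47, SE 0.23), T-box genes of lung mesenchyme, and Foxp1 (-1.43, SE 0.12), with adjusted p of 3.29e-11, 5.62e-17, 6.42e-13 and 9.43e-14. Patterning genes thus moved in both directions between the cell types.

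Of 18 tested genes that lie next to the clusters, 4 were higher and 2 lower in AECII controls, against 27.9% and 31.3% of all genes tested. Skap2, beside the head end of HoxA on chromosome 6, was lower by -0.57 (SE 0.11, adjusted p = 2.60e-05), and Ttll6 and Skap1 at the ends of HoxB on chromosome 11 were not called (adjusted p = 0.780 and 0.115). Beside HoxC on chromosome 15, Calcoco1 was lower (-1.42, SE 0.29, adjusted p = 4.86e-05) and Smug1, next to Hoxc4, was higher (0.97, SE 0.16, adjusted p = 6.58e-07). Mtx2, next to the HoxD cluster on chromosome 2, was higher (0.55, SE 0.09, adjusted p = 1.04e-06). Hnrnpa3 (0.66, SE 0.05) and Hnrnpa1 (0.53, SE 0.10) were the other 2 called, both higher (adjusted p = 1.71e-14 and 1.74e-05). Of 18 non-coding transcripts of the clusters that were listed, 2 were on the array and 1 was tested, and it was not called.

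The extracts were compared with control to show whether vapour extract, with or without nicotine in the liquid, moves positional genes. No member was called in any of the 8 comparisons (limma), which were each extract against control and against the other in each cell type and the difference of the responses between the cell types. The share of all genes called was 0% in each of them except PASMC 18mg against control, where it was 0.0275%. The 0mg and 18mg comparisons of a cell type share their control arrays, and neither they nor their intervals use any sharing of mice between conditions.

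In AECII, 16 members were tested and 0 called with either extract. At an unadjusted p under 0.05 there was 1 member with the 0mg extract, as for 3.32% of all genes tested, and 0 with the 18mg extract (2.36%). The one was Hoxa2, which ran from 3.23 over 4.02 to 5.31 with 0mg and from 2.85 over 3.79 to 5.02 with 18mg. Both ranges overlapped the control range of 2.35 to 4.03. The differences were 0.79 (SE 0.32, limma adjusted p = 0.999) and 0.65 (SE 0.32, limma adjusted p = 1.00), and 7 of 8 arrays lay above the control mean with each extract. Hoxa2 was above background in 4 of 8 control arrays and 7 of 8 arrays with each extract, and the difference of its 0mg response between cell types was not called (0.56, SE 0.42, limma adjusted p = 1.00). Hoxb6 was lower by -0.59 with 18mg (SE 0.32, 95% interval -1.25 to 0.06, limma adjusted p = 1.00). Against each other the 2 extracts gave 0 members called and 0 at an unadjusted p under 0.05 (3.09% of all genes).

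In PASMC, 21 members were tested, Hoxb1 and Hoxd12 among them, and 0 were called. At an unadjusted p under 0.05 there was 1 member with 0mg (2.76% of all genes), 0 with 18mg (4.05%) and 0 between the extracts (1.94%). The one was Hoxb2, which rested at 8.52 ± 0.22 in controls, 8.72 ± 0.13 with 0mg and 8.69 ± 0.18 with 18mg (0.20, SE 0.10, limma adjusted p = 1.00 for 0mg). Over the 11 members that separate the cell types, the PASMC differences ran from -0.09 to 0.23 with 0mg and from -0.11 to 0.30 with 18mg. Their 95% intervals reached from -0.72 to 0.86, so changes of that size were not excluded. In AECII 10 of these members were tested; their differences ran from -0.32 to 0.31 with 0mg and from -0.59 to 0.20 with 18mg, and the intervals reached from -1.25 to 0.99. The differences between cell types in the same genes ran from -1.68 to -3.87 in controls. These genes were picked for not overlapping between the cell types, so those differences are large by choice and are no yardstick for the extracts.

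**Figure D5:**
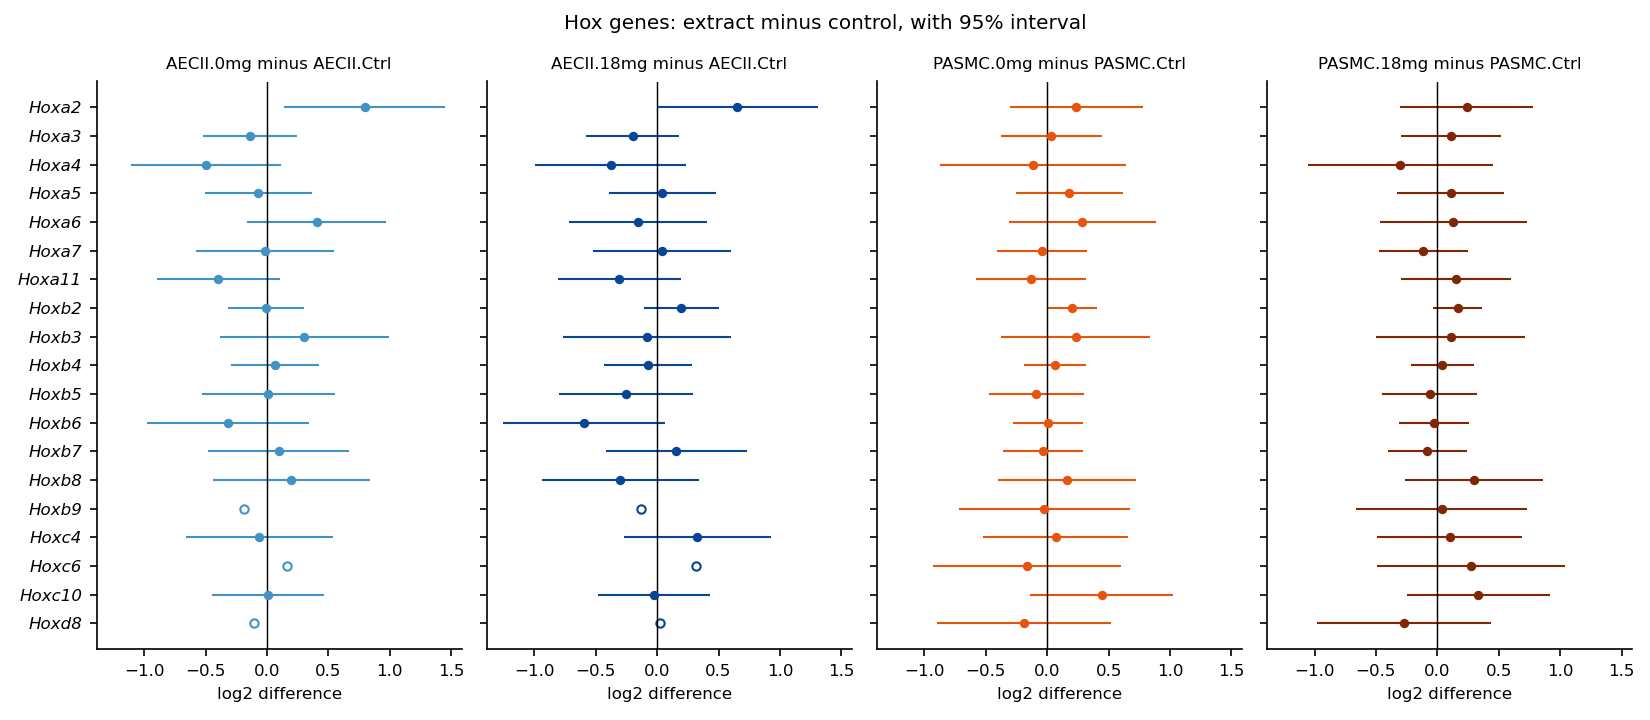
Extract minus control (x axis, log2) for the 19 Hox genes above background (rows) in the 4 comparisons with control (panels). Points with 95% intervals were tested and open points lay under the filter; Hoxa2 in AECII with 0mg stands farthest from 0, at 0.79.

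The interaction of cell type and extract, tested for 19 members, gave 0 calls and 0 members at an unadjusted p under 0.05 for either extract (2.66% and 2.59% of all genes). Hoxb8 had the most negative value among members above background, -0.60 for 18mg (SE 0.42, 95% interval -1.44 to 0.25, limma adjusted p = 1.00). Of the 8 cofactors, 15 retinoic acid genes, 21 Polycomb genes and 16 Trithorax and demethylase genes tested, 0 were called in any of these 8 comparisons.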

How the data were processed

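Total RNA of 48 cultures was measured on Agilent one-colour (Cy3) arrays. The deposited log2 values were quantile normalised by the authors, per the labels; limma is listed in the submitters' processing notes, with no version or step. No sample column was left unused. Features were named through the platform annotation, and each of 20738 genes was read from its feature with the highest mean. Genes whose mean over the fitted arrays was under 2.73, the 30th percentile of feature means over all 48 arrays, were not tested. Linear models were fitted with limma 3.58.1 in R 4.3.3 (lmFit, eBayes), over all 48 arrays for cell types and interactions and over 24 within a cell type. A call was a Benjamini-Hochberg adjusted p under 0.05 over all genes tested, and adjusted p-values in the text come from these fits.

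The members and lists were chosen with earlier results of these data known. Members above background or called are given with values. Of other genes, up to 4 called in each direction of a list, by smallest p, all cofactors and 7 markers are named; others named were chosen after their values were seen. At least N-fold values set the dim group no lower than background. In simulated data 100 genes were changed by 1 log2 unit and 100 by 0.5. Of these, 60 and 38 were recovered between cell types, 78 and 45 in AECII and 73 and 30 in PASMC for 18mg. The share of changed genes was set and differs from the data, so these counts are not recovery rates for the comparisons above. Alternatives covered normalisation, filter, feature, background percentile, block and left-out arrays. Same-numbered arrays did not deviate together throughout (0 of 15 pairs of groups had every correlation over 0.1), so numbers were not used as pairs. The closest pair was PASMC 0mg and PASMC 18mg, with 5 of 8 correlations over 0.1 and a median of 0.14.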

Additional observations from a re-analysis of the deposited data

Results flagged for a closer look

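In 8 of 93 groups of 8 arrays, 1 array stood apart from the rest by Dixon's test at its 95% critical value; chance flags about 1 in 20 groups. In AECII, control array 3 was high for Hoxa5 (8.04, next 7.13) and for Hoxb5 (6.13, next 5.17). Hoxa5 was also high in 18mg array 5 (7.87, next 7.27). With 0mg, Hoxb5 was high in array 4 (6.09, next 5.12) and Hoxb8 was low in array 7 (2.91, next 4.01). In PASMC, Hoxa4 was low in control array 2 (3.61, next 4.91), Hoxd8 in control array 5 (1.87, next 3.15) and Hoxa7 in 0mg array 3 (8.52, next 9.36).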

How the results depend on the processing

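The count of Hox genes lower in AECII was 16 in controls and 15 with each extract. Leaving out 1 array at a time gave 15 to 16 in controls, and other settings gave 12 (filter at the 50th percentile) to 17 (no filter). The 1 gene called higher in the 18mg cultures, Hoxc4, fell to 0 without the PASMC arrays with Sftpc above 6 and without those with Sox10 above 8, and lay between 0 and 1 when single arrays were left out; the cause was not tested. With background at the 99th percentile of the receptor genes, 10 rather than 16 members were above it in some AECII group, by construction of the higher line. Hoxa4 and Hoxd8 lost their calls in controls without the arrays with Sftpc above 6. Fits with a replicate block gave 16 lower genes in controls; the numbers are not known to mark mice, so this does not bear on mice shared between groups. The exclusions by Col3a1 and Sox10 were chosen after seeing the data. No extract comparison called a Hox gene under any alternative run.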
